A study of Mus musculus with 12 samples.

Results

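Transcripts of 34 antioxidant genes were followed in mouse ventricles. The genes comprise the transcription factor NRF2 (Nfe2l2), its repressor and the enzymes that make and use glutathione, thioredoxin, ferritin and NADPH, many of them textbook NRF2 targets. They were chosen by gene name from the 55421 genes of the count table. All 34 had a row in the table, and all 34 passed the filter on low counts that left 17702 genes for testing. Expression is given as CPM, counts scaled to the library total with TMM factors; TMM corrects for differences in library composition.

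All mice were wild type and were compared in 3 groups of 4 libraries. AngII_FI mice carried an osmotic minipump under the skin that released angiotensin II from day 0. This hormone constricts vessels, and its infusion is a common model of hypertrophy of the heart. AngII_FI mice also received Forsythoside I (FI), a plant-derived compound, at 50 mg/kg into the peritoneum on alternate days up to day 14, with the first dose on the day before the pump. AngII mice received angiotensin II with vehicle, and saline mice received saline with vehicle. FI without angiotensin II was not a group here. The labels do not say which library came from which animal, so p-values measure the spread between these libraries.

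In unstressed cells KEAP1 holds NRF2 in the cytoplasm and directs its degradation. Oxidants and electrophiles modify KEAP1, NRF2 then accumulates in the nucleus, and with small MAF proteins it binds antioxidant response elements near its target genes. Because this control acts on the NRF2 protein, the level of Nfe2l2 mRNA need not follow the activity of the pathway. In the heart, hydrogen peroxide from the respiratory chain and from oxidases is removed mainly by peroxiredoxins, glutathione peroxidases and catalase.

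Libraries held 68874852 to 80624227 counts, of which 29.1% to 38.8% lay on mitochondrially encoded genes. AngII_FI 3 stood apart. The 25 hepatocyte markers took 3.02% of its counts and summed to 29081 CPM in it. Their sum was 43.0 to 117 CPM in the remaining 11 libraries, with AngII 3 the highest of these. Many antioxidant genes are abundant in liver, so AngII_FI 3 was left out of the fits, which leaves 3 AngII_FI libraries against 4 in each other group, and its values are given separately. The 8 cardiomyocyte markers, none at 0 in any library, summed to 39924 to 47608 CPM in AngII_FI, 31663 to 39177 CPM in AngII and 37160 to 46807 CPM in saline libraries.

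Ventricles carried these genes at levels that spanned several orders of magnitude. Per kilobase of annotated exon, Gpx4, the peroxidase that reduces lipid hydroperoxides in membranes, stood first in saline ventricles with 252 ± 13.7 CPM per kb (SD, n = 4). The ferritin heavy chain Fth1, which oxidises and stores iron, followed with 238 ± 15.8 CPM per kb, a difference smaller than its own SD. Prdx3, the peroxiredoxin of the mitochondrial matrix, came next with 191 ± 13.5 CPM per kb. This order rests on the length of all annotated exons of a gene, which can exceed that of its main transcript. That length is 1724 bases for Gpx4, 3469 bases for Fth1 and 10008 bases for Sod2. Without division by length, saline ventricles had 825 CPM of Fth1, 435 CPM of Gpx4 and 430 CPM of Sod2. Hmox1 and Gclc lay far lower. Hmox1, the inducible haem oxygenase, had 3.07 ± 0.64 CPM per kb and Gclc, the catalytic subunit of the rate-limiting enzyme of glutathione synthesis, had 2.61 ± 0.48 CPM per kb in saline ventricles, which did not differ beyond their spread. Slc7a11, the cystine transporter that feeds glutathione synthesis, was at the edge of detection. It had 4, 3 and 2 counts in AngII_FI 1, 2 and 4, 1, 30, 11 and 8 counts in AngII 1 to 4, and 14, 9, 2 and 3 counts in saline 1 to 4. Several of these counts are at or under 3, and its gene model shares sequence with abundant tubulin genes, so no fold change is given for it.

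**Figure D1:**
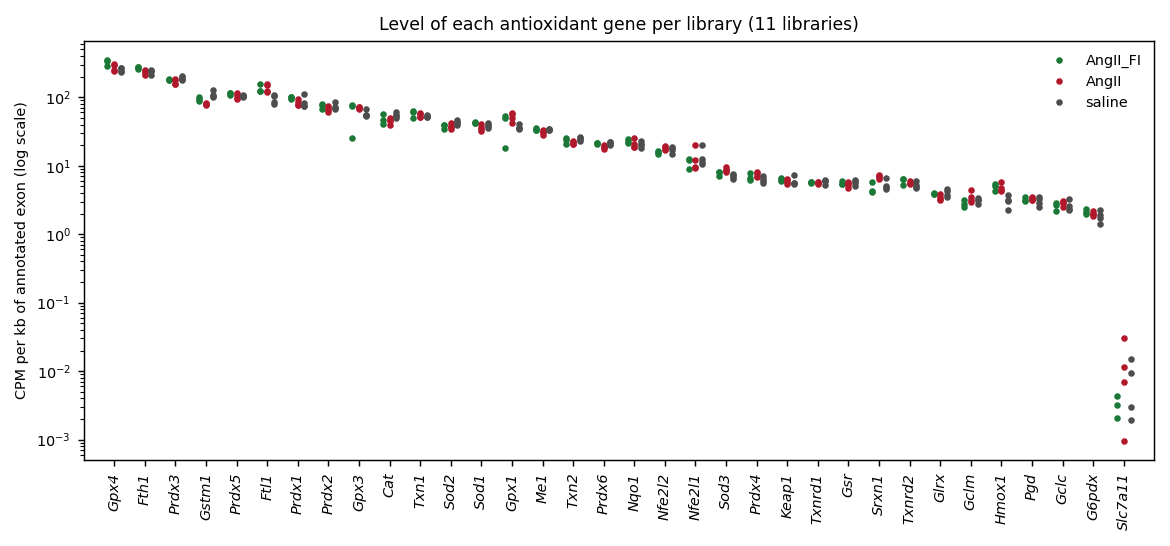
Level of each of the 34 genes as CPM per kilobase of annotated exon (log axis), 1 point per library for 3 AngII_FI, 4 AngII and 4 saline libraries, ordered by the saline mean. Gpx4 and Fth1 stand highest, with 252 and 238 CPM per kb in saline ventricles, and Slc7a11 lies far below all others.

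NRF2 sites were looked for as letters in promoter windows from RefSeq (build GRCm38.p6), which run from 250 bases before to 50 bases after an annotated start. The search used the core of the antioxidant response element, TGACNNNGC, and the AP-1 site TGANTCA, on both strands. The 2 motifs can overlap. Of the 34 genes, 29 had at least 1 window, 43 in all; Hmox1, Gclc, Gsr, Prdx6 and Sod3 had none in the table. The core occurred in 9 of the 43 windows, against 12.4% of all 32851 windows, and these belonged to 9 of the 29 genes. The AP-1 letters occurred in 5 of the 43 windows, against 7.81% of all windows, and these belonged to 4 genes (Glrx, Me1, Prdx1 and Srxn1). Some genes have several windows, so counts of windows and of genes can differ. In 2 of the 43 windows, those of Me1 and Prdx1, both motifs overlapped, an arrangement found in 0.454% of all windows. The 9 cores are shown with 9 bases on each side, on the gene's strand and 5′ to 3′, with the core in capitals and its first base counted from the start site. A core that begins with GC and ends with GTCA lies on the opposite strand.
G6pdx (before the start, first capital at position -57): ggcgggtcaGCTCAGTCAaagcacacg
Gclm (before the start, first capital at position -134): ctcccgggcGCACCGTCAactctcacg
Me1 (before the start, first capital at position -6): atgccgccgTGACTCAGCgcttctcgc
Nfe2l2 (before the start, first capital at position -240): cagcccaccTGACTCCGCcatgccccg
Pgd (after the start, first capital at position 4): tttcagagcTGACATTGCactgatcgg
Prdx1 (before the start, first capital at position -133): agggaaagcGCTGAGTCAtcccccgta
Sod1 (before the start, first capital at position -56): ccaaggtggGCGTGGTCAgactcaggc
Srxn1 (after the start, first capital at position 29): cagtgggcaGCTAGGTCAgagtgagac
Txnrd1 (before the start, first capital at position -92): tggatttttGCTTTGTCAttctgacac

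Upstream stretches of 2 genes described below are shown next, as the 250 bases before the start on the gene's strand, with AP-1 letters in capitals. Of these 2 genes, Srxn1 passed the test in none of the comparisons below. Srxn1 encodes sulfiredoxin, which restores overoxidised peroxiredoxins, and its stretch (chr2:152105274-152105523, plus strand) holds 2 AP-1 matches. Ftl1 encodes the ferritin light chain, and its stretch (chr7:45459887-45460136, minus strand) holds neither motif. The window of Gstm1 also held neither. A match is only a run of letters, and the lack of one concerns this window alone.
Srxn1: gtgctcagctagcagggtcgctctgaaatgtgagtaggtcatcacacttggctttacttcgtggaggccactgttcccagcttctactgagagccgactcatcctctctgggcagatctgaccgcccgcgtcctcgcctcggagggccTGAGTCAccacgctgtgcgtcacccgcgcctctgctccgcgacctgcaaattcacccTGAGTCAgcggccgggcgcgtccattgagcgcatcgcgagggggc
Ftl1: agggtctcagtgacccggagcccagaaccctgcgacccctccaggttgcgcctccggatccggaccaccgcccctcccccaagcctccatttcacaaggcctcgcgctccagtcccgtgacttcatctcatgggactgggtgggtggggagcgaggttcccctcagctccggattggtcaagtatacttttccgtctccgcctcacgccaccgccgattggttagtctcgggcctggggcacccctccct

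Angiotensin II against saline asks whether the antioxidant programme moves in the remodelling ventricle. Few of its genes passed the test. Of the 34 genes, 2 rose (Hmox1 and Ftl1) and 1 fell (Gstm1) in the quasi-likelihood test of edgeR, with p adjusted by the Benjamini-Hochberg method over all 17702 genes and called under 0.05. That is 3 of 34, where 3.86% of all tested genes were called. Across all tested genes 2.49% rose and 1.37% fell, that is 441 and 242 genes, or 374 and 119 with scaling by total counts alone. The median log2 fold change of the 34 was 0.01, against 0.00 for all genes, with 17 genes above 0 and 17 below. At an unadjusted p under 0.05 there were 5 genes higher and 6 lower, and 11 of 34 compares with 18.8% of all genes. The AngII and saline values did not overlap for 9 of the 34 genes, against 13.2% of all genes. AngII lay above for 5 of them, against 7.12% of all genes, and below for 4, against 6.12%.

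Hmox1 (ENSMUSG00000005413, chr8:75093621-75100589, plus strand) degrades haem to biliverdin, carbon monoxide and iron. Its level was 7.56, 7.83, 8.30 and 10.2 CPM in AngII 1 to 4, against 3.92, 6.64, 5.37 and 5.56 CPM in saline 1 to 4. Every AngII library lay above every saline library. On the log2 scale Hmox1 changed by 0.66 ± 0.16 (SE, n = 4 per group; adjusted p = 0.0418, edgeR). This call was lost in 9 of 11 fits that each left out 1 library, whose adjusted p ran from 0.0330 to 0.111, and was kept only without saline 2 and without AngII_FI 2. It was also lost in 5 of 10 other alternatives.

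Ftl1 (ENSMUSG00000050708, chr7:45457944-45459884, minus strand), the ferritin subunit that helps form the iron core, also rose. It had 159, 164, 203 and 213 CPM in AngII 1 to 4, against 106, 141, 146 and 116 CPM in saline 1 to 4. The AngII libraries all lay above the saline libraries, with AngII 1 and 2 nearest to them. Its log2 fold change was 0.54 ± 0.13 (SE; edgeR, adjusted p = 0.0405). Without saline 1, 2 or 4, or without AngII 2, 3 or 4, the call was lost, with adjusted p up to 0.108, and it was lost in 3 of 10 other alternatives. Processed copies at 95% identity or more held 3.15% of the counts of Ftl1 and its copies together. Fth1, the other ferritin chain, did not pass the test. It spanned 731 to 879.5 CPM in AngII and 744 to 867 CPM in saline libraries, which overlap almost wholly.

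Gstm1 (ENSMUSG00000058135, chr3:108012255-108017973, minus strand), a cytosolic mu-class glutathione transferase that conjugates electrophiles, fell. It had 112, 117, 123 and 118 CPM in AngII 1 to 4, against 151, 158, 146 and 189 CPM in saline 1 to 4. The groups were apart by more than the range within AngII, with saline 4 the highest. The log2 fold change was -0.45 ± 0.09 (SE; edgeR, adjusted p = 0.0176), and only the fit without AngII 2 (adjusted p = 0.0521) lost the call among those that left out 1 of the 11 libraries. With all 12 libraries in the fit, none of the 3 genes passed, at adjusted p of 0.0634 for Hmox1, 0.306 for Ftl1 and 0.416 for Gstm1, while 273 of all genes rose and 115 fell. In that fit AngII_FI 3 enters the estimate of the spread, and it held 408 CPM of Ftl1 and 339 CPM of Gstm1.

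In bulk tissue, more cells of a type and more RNA per cell cannot be told apart. Macrophages, which take up dying red cells and recycle their iron, are rich in Hmox1 and ferritin light chain. The 10 macrophage markers, none at 0 in any library, summed to 542 to 647 CPM in AngII and 350 to 454 CPM in saline libraries, and 5 of 10 rose and 0 fell. The 8 fibroblast markers summed to 2328 to 2483 CPM in AngII and 1756 to 2245 CPM in saline libraries, and 5 of 8 rose. The part of either shift in Hmox1 and Ftl1 was not tested. Cardiomyocyte markers did not pass the test, with 1 of 8 above 0. The 8 endothelial markers summed to 1375 to 1519 CPM in AngII and 966 to 1295 CPM in saline libraries. Of these markers 6 of 8 were above 0 and none passed the test. Among 6 red blood cell markers tested, 0 were above 0, with a median log2 fold change of -0.58 and none past the test. The part of these cell types was not tested.

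**Figure D2:**
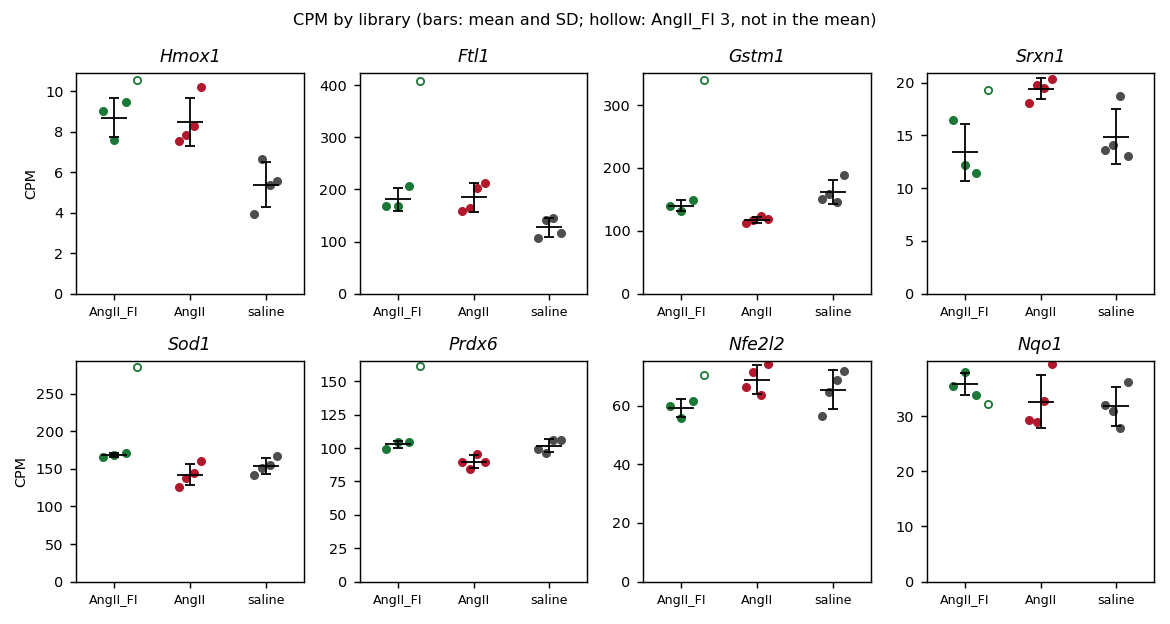
CPM of 8 genes by library in AngII_FI, AngII and saline ventricles, with the mean and SD as bars; the hollow point is AngII_FI 3, which is in no mean. Hmox1 and Ftl1 lie higher and Gstm1 lower in all 4 AngII than in all 4 saline libraries, while Srxn1 and Nfe2l2 are lower in AngII_FI 1, 2 and 4 than in every AngII library.

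The control point of the pathway gave no call. Nfe2l2 (chr2:75675513-75704641) had 66.3, 71.4, 63.5 and 74.3 CPM in AngII 1 to 4, against 56.6, 64.6, 68.6 and 71.9 CPM in saline 1 to 4, and its log2 fold change was 0.07 ± 0.09 (SE). Keap1 (chr9:21229730-21239361) averaged 27.6 ± 2.11 CPM in AngII and 28.1 ± 3.98 CPM in saline libraries (SD, n = 4 each). These overlapping values leave no detectable difference for either gene. Nfe2l1, which encodes the related factor NRF1 that restores proteasome genes, split within groups rather than between them. It had 109 CPM in AngII 2 and 110.2 CPM in saline 2, against 50.2 to 65.1 CPM in the other AngII and 58.3 to 69.3 CPM in the other saline libraries.

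None of the other textbook NRF2 targets of the fixed set passed the test in the same comparison. Nqo1 (chr8:107388225-107403206), which reduces quinones by an electron pair, had 29.4, 29.0, 32.8 and 39.4 CPM in AngII 1 to 4, against 32.0, 31.0, 27.9 and 36.3 CPM in saline 1 to 4, a log2 fold change of 0.04 ± 0.11 (SE). Gclc (chr9:77754535-77794485) averaged 10.6 ± 0.89 CPM in AngII and 9.82 ± 1.804 CPM in saline libraries. Gclm (chr3:122245557-122270732), the modifier subunit that raises the activity of Gclc, averaged 22.2 ± 4.29 CPM in AngII and 19.7 ± 1.61 CPM in saline libraries; its annotated model includes a stretch that matches Ppia, an abundant gene, so its level is uncertain. Txnrd1 (chr10:82833951-82897712), the cytosolic selenoenzyme that reduces thioredoxin, averaged 40.2 ± 1.42 CPM in AngII and 41.5 ± 2.84 CPM in saline libraries. Srxn1 (chr2:152105516-152111376) gave the largest log2 fold change of this set, 0.38 ± 0.14 (SE; edgeR, adjusted p = 0.149). Its level was 18.0, 19.8, 19.5 and 20.3 CPM in AngII 1 to 4, against 13.6, 14.1, 18.7 and 13.1 CPM in saline 1 to 4, where saline 3 alone reached the AngII range.

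Genes of hydrogen peroxide and superoxide removal lay on both sides of 0, and none passed edgeR's test. DESeq2 called Sod3 (adjusted p = 0.0353), where it called 865 of all genes higher and 600 lower. Gpx1, the abundant cytosolic glutathione peroxidase, spanned 60.3 to 84.0 CPM in AngII and 49.6 to 59.0 CPM in saline libraries. Gpx3, the secreted form found in plasma, spanned 121.5 to 133 CPM in AngII and 95.5 to 121.4 CPM in saline libraries, so that the groups touched without overlapping. Sod3, the extracellular superoxide dismutase, spanned 30.2 to 36.1 CPM in AngII and 24.0 to 28.6 CPM in saline libraries. These 3 lay wholly above saline. Of the 11 genes of the thioredoxin system, 4 were above 0 and 7 below, with a median log2 fold change of -0.04. Txn2, the mitochondrial thioredoxin, spanned 86.3 to 96.1 CPM in AngII and 98.1 to 112 CPM in saline libraries. Prdx6, a 1-cysteine peroxiredoxin that also acts on phospholipids, spanned 84.3 to 95.9 CPM in AngII and 96.1 to 106 CPM in saline libraries. Me1, the cytosolic malic enzyme that supplies NADPH, spanned 108 to 126.5 CPM in AngII and 127.8 to 133 CPM in saline libraries. These 3 lay wholly below saline. With total counts alone, Txn2 still did, Prdx6 and Me1 overlapped saline, and Prdx3 lay wholly below it. The 4 genes of NADPH supply and quinone reduction had log2 fold changes between -0.14 and 0.13.

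Related genes that are not among the 34 were counted in 6 lists. Of 28 other genes of glutathione use, transport and synthesis, 1 rose and 3 fell, where 2.49% of all tested genes rose and 1.37% fell, with a median log2 fold change of -0.10. Gstm7, a second mu-class transferase, fell, with 18.2 ± 1.34 CPM in AngII and 29.3 ± 2.98 CPM in saline libraries (SD, n = 4 each; edgeR adjusted p = 0.00874). Gstk1, the kappa-class transferase of mitochondria and peroxisomes, fell, with 54.9 ± 3.11 CPM in AngII and 70.5 ± 6.44 CPM in saline libraries (edgeR adjusted p = 0.0282). Gpx7, a peroxidase of the endoplasmic reticulum, rose, with 7.34 ± 1.06 CPM in AngII and 4.72 ± 0.50 CPM in saline libraries (edgeR adjusted p = 0.032). Gstm2 fell as well. Gstm genes are near-identical in places, and the sources used here do not say how reads that fit several genes were counted, so the mu-class values are uncertain as separate genes.

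The other lists each gave at most 1 call, and with 3.86% of all tested genes called, a single call in a list of this size says nothing about the list. None of 17 other thioredoxin, glutaredoxin and methionine sulfoxide reductase genes passed edgeR's test, with 2 at an unadjusted p under 0.05 and a median of 0.04. Of 24 other NRF2 targets 1 rose, with a median of 0.11: Ugdh, which makes UDP-glucuronate, had a log2 fold change of 0.41 ± 0.10 (SE; adjusted p = 0.0412, edgeR). Of 14 genes of NRF2 partners, repressors and degradation 1 fell, with a median of 0.08: Cul3, the cullin with which KEAP1 ubiquitinates NRF2, had a log2 fold change of -0.34 ± 0.08 (SE; adjusted p = 0.0394, edgeR). Of 17 other selenoproteins and selenium genes 1 rose, with a median of 0.07: Dio2, the deiodinase that activates thyroid hormone, averaged 2.79 ± 0.51 CPM in AngII and 1.21 ± 0.32 CPM in saline libraries. Of 13 iron and haem genes 1 rose, with a median of -0.18: Hp, haptoglobin, averaged 1.43 ± 0.78 CPM in AngII and 0.35 ± 0.21 CPM in saline libraries. Hp is also a hepatocyte gene, and AngII 3 had the most hepatocyte marker RNA of the 11 libraries. Its part was not tested.

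The comparison of AngII_FI with AngII asks whether FI changes these genes in ventricles exposed to angiotensin II. None of the 34 passed edgeR's test, and across all genes 0.00565% did, which is 1 gene, Hnrnpa3, lower and not of this list. At an unadjusted p under 0.05 there were 8 of 34, 5 higher and 3 lower, against 7.93% of all genes, and neither DESeq2 nor limma-voom called any. The median log2 fold change of the 34 was 0.09, against -0.0027 for all genes, with 22 genes above 0 and 12 below, or 16 above and 18 below with scaling by total counts alone. That scaling moved the median of all genes by -0.10. Values of AngII_FI 1, 2 and 4 did not overlap those of AngII for 9 genes, against 9.51% of all genes. They lay above for 7, against 4.03% of all genes, and below for 2, against 5.49%. With total counts alone there were 3 above and 5 below, so the balance of directions around 0 turns with the scaling. Under that scaling the median was -0.0054 for the 34 and -0.10 for all genes, so both moved down together. The share of all genes without overlap was not computed under it. This comparison and the previous one share the 4 AngII libraries, and a gene with a high or low AngII mean therefore tends to have opposite signs in them.

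Srxn1 had the smallest p. Its level was 16.5, 12.2 and 11.5 CPM in AngII_FI 1, 2 and 4, against 18.0, 19.8, 19.5 and 20.3 CPM in AngII 1 to 4. The 3 AngII_FI values lay below all AngII values and within or below the saline range of 13.1 to 18.7 CPM. The log2 fold change was -0.54 ± 0.15 (SE; edgeR, adjusted p = 0.542). AngII_FI 3, at 19.3 CPM, lay inside the AngII range.

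Nfe2l2 and Gclm had the next smallest p on this side. Nfe2l2 had 60.0, 55.9 and 61.8 CPM in AngII_FI 1, 2 and 4, below the lowest AngII value of 63.5 CPM, and a log2 fold change of -0.22 ± 0.09 (SE; adjusted p = 0.608, edgeR). Gclm had 19.7, 15.6 and 17.6 CPM in AngII_FI 1, 2 and 4, against 18.3, 22.2, 19.99 and 28.1 CPM in AngII 1 to 4, and a log2 fold change of -0.33 ± 0.14 (SE; adjusted p = 0.608, edgeR). For Gclm the groups overlapped through AngII_FI 1, and AngII 4 stood highest. In AngII_FI 3, Nfe2l2 was at 70.6 CPM and Gclm at 23.9 CPM, both inside the AngII range.

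The 3 smallest p on the other side belonged to Sod1, Prdx6 and Gstm1. Sod1, the copper-zinc superoxide dismutase of the cytosol, had 166, 169 and 171 CPM in AngII_FI 1, 2 and 4, against 126, 138, 144 and 160.4 CPM in AngII 1 to 4. Its log2 fold change was 0.25 ± 0.09 (SE; edgeR, adjusted p = 0.546). Prdx6 had 99.6, 104 and 104 CPM in AngII_FI 1, 2 and 4, against 89.5, 84.3, 95.9 and 89.8 CPM in AngII 1 to 4, a log2 fold change of 0.19 ± 0.07 (SE; adjusted p = 0.548, edgeR). For both, every AngII_FI value exceeded every AngII value. Gstm1 had 140.02, 131 and 149.8 CPM in AngII_FI 1, 2 and 4, all above the highest AngII value of 123 CPM, with 2 of the 3 below the lowest saline value of 146 CPM. Its log2 fold change was 0.25 ± 0.09 (SE; edgeR, adjusted p = 0.548).

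**Figure D3:**
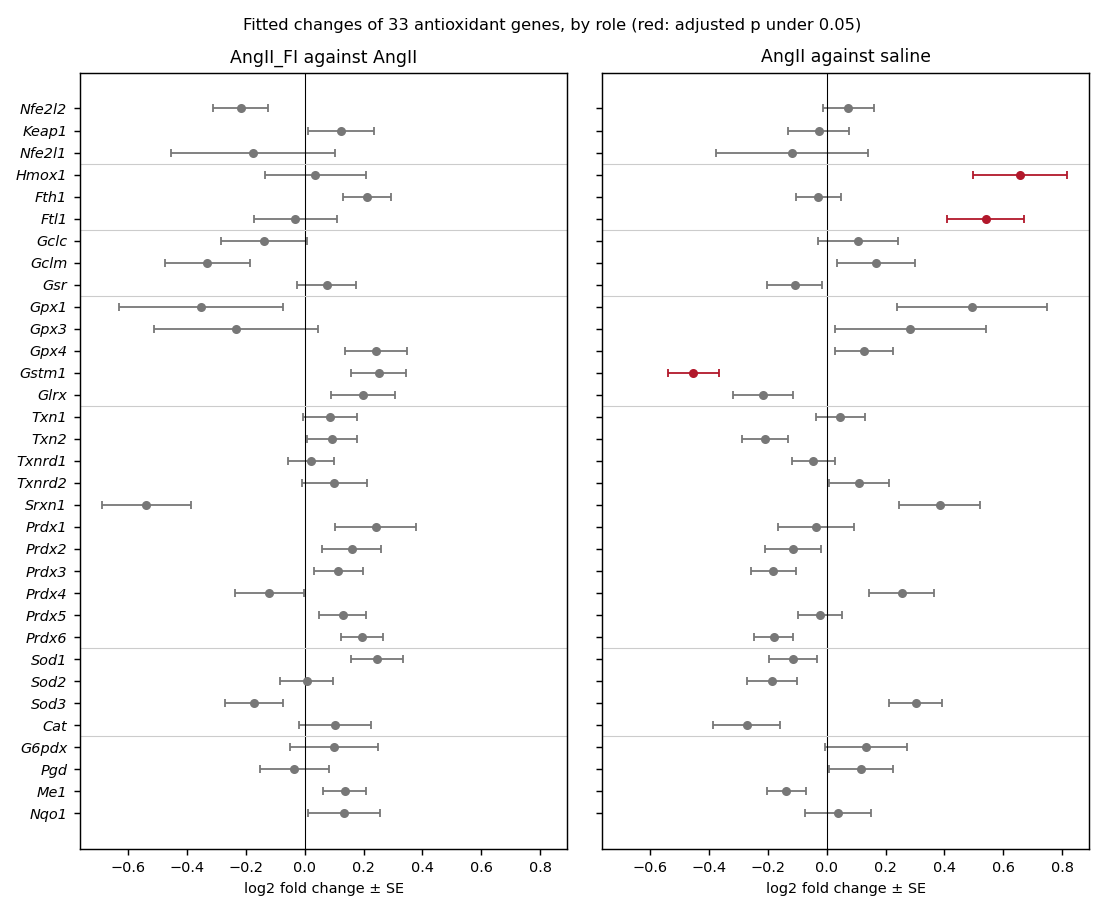
Log2 fold change with its standard error for 33 of the 34 genes (Slc7a11 is left out), grouped by role, for AngII_FI against AngII (left; 3 and 4 libraries) and AngII against saline (right; 4 each). Red marks an adjusted p under 0.05, which Hmox1, Ftl1 and Gstm1 reach on the right and no gene reaches on the left.

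The other genes without overlap between AngII_FI and AngII were Fth1, Glrx, Prdx1 and Me1. Fth1 spanned 907 to 957 CPM in AngII_FI and 731 to 879.5 CPM in AngII libraries. Prdx1, a cytosolic peroxiredoxin, spanned 285 to 309 CPM in AngII_FI and 231 to 283 CPM in AngII libraries. Glrx, glutaredoxin, which removes glutathione from proteins, spanned 21.5 to 22.3 CPM in AngII_FI and 17.3 to 21.3 CPM in AngII libraries. Me1 spanned 126.7 to 136 CPM in AngII_FI and 108 to 126.5 CPM in AngII libraries. All 4 lay above AngII by small margins. With total counts alone, Fth1, Glrx and Gstm1 still lay above AngII, and Prdx1, Prdx6, Sod1 and Me1 overlapped.

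None of the other genes of the fixed set passed the test with FI. Hmox1 had 9.01, 7.60 and 9.45 CPM in AngII_FI 1, 2 and 4, within the AngII range, and a log2 fold change of 0.04 ± 0.17 (SE). Nqo1 had 35.6, 38.0 and 33.9 CPM in AngII_FI 1, 2 and 4, also within the AngII range. Gclc averaged 9.61 ± 1.24 CPM in AngII_FI (n = 3) and 10.6 ± 0.89 CPM in AngII libraries (SD, n = 4). Txnrd1 averaged 40.9 ± 0.91 CPM in AngII_FI and 40.2 ± 1.42 CPM in AngII libraries. Keap1 averaged 30.1 ± 1.43 CPM in AngII_FI and 27.6 ± 2.11 CPM in AngII libraries. A missed threshold does not show that these genes act alike in the 2 groups.

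By role, 9 of the 11 thioredoxin-system genes were above 0 with FI, or 6 of 11 with total counts alone, and the exceptions were Srxn1 and Prdx4. Among the genes of glutathione synthesis and recycling, Gclc and Gclm were below 0 and Gsr, the reductase that regenerates glutathione, was above. The cardiomyocyte markers, 8 of 8 above 0 with a median log2 fold change of 0.30 and none past the test, lay on the same side of 0 as most thioredoxin genes, and their part was not tested. Of the 8 endothelial markers 1 was above 0, with a median of -0.29, and they summed to 1143 to 1473 CPM in AngII_FI and 1375 to 1519 CPM in AngII libraries. Of the 8 fibroblast markers 1 was above 0, with a median of -0.19, and they summed to 2293 to 2331 CPM in AngII_FI and 2328 to 2483 CPM in AngII libraries. None of these markers passed the test, both lists lay on the same side of 0 as Srxn1, Nfe2l2 and Gclm, and their part was not tested. The 8 red blood cell markers summed to 88.3 to 218 CPM in AngII_FI and 48.2 to 96.8 CPM in AngII libraries. Macrophage markers summed to 567 to 622 CPM in AngII_FI, within the AngII range. None of the 6 lists of related genes held a call with FI, by edgeR's test, and their medians lay between -0.04 for selenoproteins and 0.12 for glutathione use.

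AngII_FI against saline compares ventricles that received both agents with those that received neither. No gene of the 34 passed edgeR's test, while 0.932% of all genes rose and 0.311% fell, that is 165 and 55 genes, or 94 and 57 with total counts alone. At an unadjusted p under 0.05 there were 4 genes, all higher, against 15.7% of all genes in either direction. DESeq2 called 3 of the 34, Hmox1, Ftl1 and Gpx4, where it called 490 of the 17702 genes higher and 307 lower. The groups did not overlap for 4 genes, against 14.6% of all genes. All 4 lay above saline, where 7.78% of all genes lay above and 6.87% below. These were Hmox1, Fth1, Ftl1 and Gpx4. With total counts alone, Hmox1 and Ftl1 lay above saline, and Prdx3, Sod2 and Gstm1 lay below it. That scaling moved the median of all genes by -0.075 in this comparison. The share of all genes without overlap was not computed under it.

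Hmox1, with the values given above, had a log2 fold change of 0.69 ± 0.17 (SE; adjusted p = 0.0751, edgeR) for AngII_FI against saline. Ftl1 had 168, 167 and 207 CPM in AngII_FI 1, 2 and 4, all above the highest saline value of 146 CPM, and a log2 fold change of 0.51 ± 0.14 (SE; adjusted p = 0.101, edgeR). Gpx4 had 582, 492 and 609 CPM in AngII_FI 1, 2 and 4, against 422, 454, 455 and 408 CPM in saline 1 to 4. Its log2 fold change was 0.37 ± 0.11 (SE; edgeR, adjusted p = 0.113). AngII_FI 2 was the closest to saline for all 3 genes. A copy of Gpx4 with 99.7% identity over 762 bases, Gpx4-ps2, was itself listed at 112 ± 10.9 CPM in AngII_FI, 93.0 ± 12.1 CPM in AngII and 86.6 ± 8.34 CPM in saline libraries, so how reads were divided between the pair is uncertain. Macrophage markers were again above saline in all 10 cases, 3 of them past the test, where 0.932% of all tested genes rose. Fibroblast markers were above saline in 8 of 8 cases, 2 of them past the test. The part of either list in Hmox1 and Ftl1 was not tested.

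On the lower side the 3 smallest p for AngII_FI against saline were those of Gstm1, Sod2 and Nfe2l2. Gstm1 had a log2 fold change of -0.20 ± 0.09 (SE; adjusted p = 0.328, edgeR). Sod2, the manganese superoxide dismutase of mitochondria, had 349, 400.1 and 391 CPM in AngII_FI 1, 2 and 4, against 436, 397, 415 and 472 CPM in saline 1 to 4, and a log2 fold change of -0.18 ± 0.09 (SE; adjusted p = 0.373, edgeR). AngII_FI 2 fell inside the saline range. An annotated transcript of another gene, Rps6ka2, shares sequence with Sod2. Nfe2l2 had a log2 fold change of -0.14 ± 0.09 (SE; adjusted p = 0.505, edgeR). Srxn1, which was the most separated from AngII, averaged 13.4 ± 2.71 CPM in AngII_FI and 14.9 ± 2.602 CPM in saline libraries, and these groups overlapped.

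Single libraries also set some values. Gpx1 was 25.9 CPM in AngII_FI 2, against 71.8 and 77.4 CPM in AngII_FI 1 and 4. Gpx3 was 45.8 CPM in AngII_FI 1, against 137 and 142 CPM in AngII_FI 2 and 4. Each low value lay in a different library and was the lowest of all 12 for its gene. Prdx1 was 344 CPM in saline 2 and 224 to 248.7 CPM in the other saline libraries. For AngII against saline, Gpx1 passed the test in the fit without AngII_FI 2 (edgeR adjusted p = 0.0341). It also passed in the fit of only the 2 groups compared (edgeR adjusted p = 0.0426). AngII_FI 2 enters this comparison through the spread, the filter and the scaling shared by all libraries, and is in neither group mean.

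**Figure D4:**
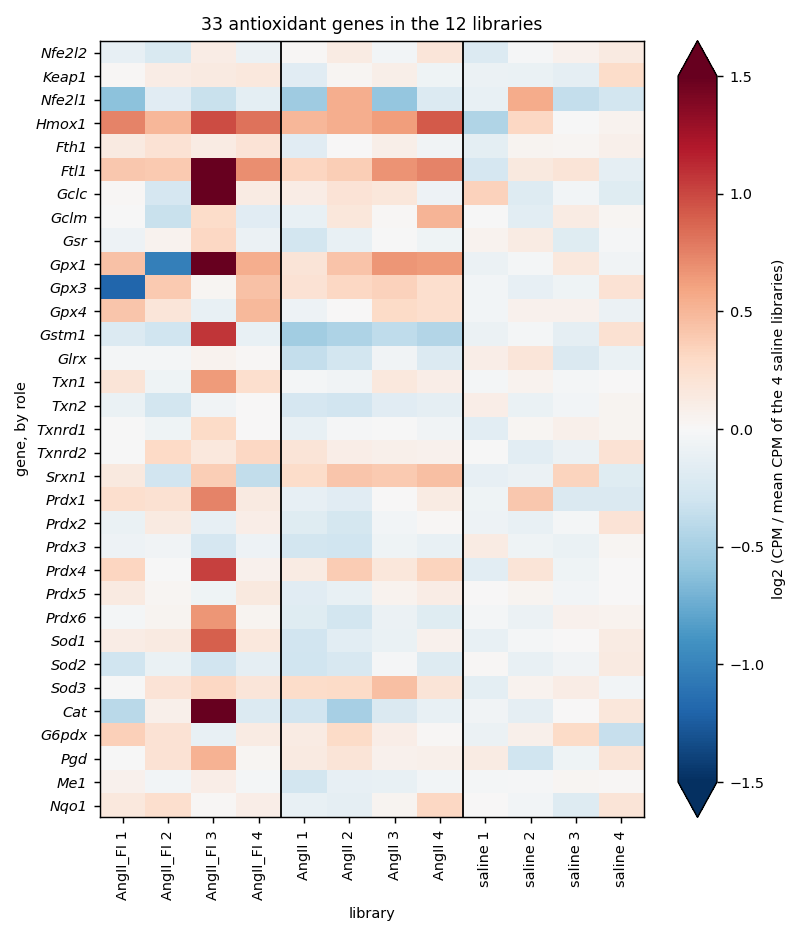
Each library's CPM of 33 genes (Slc7a11 is left out) as log2 of its ratio to the mean of the 4 saline libraries, by role, with AngII_FI, AngII and saline libraries in that order; colours saturate at 1.5. AngII_FI 3 shows high Ftl1, Gclc, Gpx1, Gstm1 and Cat, and the low values of Gpx3 in AngII_FI 1 and Gpx1 in AngII_FI 2 stand out.

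AngII_FI 3 carried many of these genes at higher levels than its group. It was the highest of the 12 libraries for 15 of the 34 genes, and 5 genes were at least 2 times the mean of AngII_FI 1, 2 and 4. Gpx1 was 6.33 times that mean, Gclc 5.96 times, Cat 3.77 times, Gstm1 2.42 times and Ftl1 2.26 times. Cat encodes catalase, the peroxisomal enzyme that breaks down hydrogen peroxide. Nqo1, at 32.2 CPM, and Fth1, at 901 CPM, were not raised in it. With this library in the fit, the median log2 fold change of the list for AngII_FI against saline was 0.16 rather than 0.05, and still no gene of the 34 passed edgeR's test in either comparison with FI.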

How the data were processed

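RNA sequencing of ventricles from wild-type mice gave 12 libraries, 4 per group by the treatment label. Values are the raw counts per gene that the authors deposited; the submitters' processing notes name build GRCm38 and the tools featureCounts 1.5.0-p3, HISAT and DESeq 1.8.3, without roles. Strand setting, annotation release and handling of reads that fit several genes: not given in the sources used here. Overlapping and near-identical genes are therefore uncertain. The labels' protocols name both TRIzol and an RNeasy kit for the extraction. Total counts were 68874852 to 80624227 per library; floors of 3 counts cover counting error only.

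Counts were fitted once over 11 libraries (AngII_FI 3 left out, for its liver transcripts) with 3 group means, after filterByExpr of edgeR and TMM, by its quasi-likelihood test (version 4.0.16 in R 4.3.3), adjusted by Benjamini-Hochberg over 17702 genes. The biological coefficient of variation common to all genes was 0.269, against 0.343 with all 12. The CPM of AngII_FI 3 use the scaling of all 12 libraries. The procedure was tested on simulated counts. Coordinates and exon lengths came from GENCODE M21 (GRCm38); copies were found by blastn at 95% identity over 200 bases or more.

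The 34 genes and all lists were chosen with earlier results of these data known, so no list is tested. Genes given with fold changes are those past the threshold, the 3 smallest p in each direction where fewer than 3 passed, and 8 genes fixed for every comparison (Nfe2l2, Keap1, Nqo1, Hmox1, Gclc, Gclm, Srxn1, Txnrd1); of other lists, up to 3 called genes by p. Alternatives were DESeq2 1.42.0, limma-voom (limma 3.58.1), other scalings, filters and designs, and each library left out in turn; overlap counts under total-count scaling and with all 12 libraries were added after seeing the data.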

Additional observations from a re-analysis of the deposited data

Results flagged for a closer look

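Within each group of 4 libraries, the gap between the highest or lowest library and its nearest neighbour was set against the range of the group (Dixon's ratio, at its 95% critical value). Of 102 groups of 4 examined over the 34 genes, 11 were picked out, where chance gives about 1 in 20. AngII_FI 3 was the odd library in 10 of the 11. It lay above AngII_FI 1, 2 and 4 for Gclc (57.3 CPM), Txnrd1 (50.7 CPM), Prdx1 (434 CPM), Prdx6 (161 CPM), Sod1 (286 CPM), Cat (478 CPM), Gpx1 (369 CPM), Ftl1 (408 CPM) and Gstm1 (339 CPM), and below them for Prdx3 (236 CPM, against 268 to 272 CPM). The other was Keap1 in saline 4, at 34.1 CPM against 25.7 to 26.5 CPM in the other saline libraries. Outside the 34 genes, the 25 hepatocyte markers reached 29081 CPM in AngII_FI 3, against 43.0 to 117 CPM in the other 11 libraries.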

How the results depend on the processing

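Over the 33 fold changes given by the rule for named genes, 21 alternatives gave 693 values, of which 648 kept direction and side of the threshold, 25 lost and 3 gained a call, and 17 changed sign, in 8 fold changes. For AngII against saline, the members called higher (2) were 0 with all 12 libraries, 1 with total counts only, 0 with no filter, 1 with the replicate block, 1 with only the 2 groups compared and 0 to 3 with 1 library left out; the member called lower (1) was 0 with all 12 libraries and 0 to 1 with 1 library left out. The member called higher with only the 2 groups compared was Gpx1 (edgeR adjusted p = 0.0426). Neither Hmox1 nor Ftl1 was called in that fit. For AngII_FI against saline, DESeq2 called 3 members higher, against 0. The median of the members was -0.0054 with total counts only for AngII_FI against AngII, and for AngII_FI against saline it was 0.16 with all 12 libraries, 0.0063 with limma-voom, -0.0280 with total counts only and 0.0090 to 0.112 with 1 library left out. Signs changed as follows. With all 12 libraries, Gclc was at 1.02 for AngII_FI against AngII, and Gclc at 1.13, Gstm1 at 0.24 and Txnrd1 at 0.0631 for AngII_FI against saline. With total counts only, Hmox1 was at -0.0587 and Txnrd1 at -0.0732 for AngII_FI against AngII. With 1 library left out, Keap1 ran from -0.0682 to 0.0786 and Nqo1 from -0.0638 to 0.109 for AngII against saline, Hmox1 from -0.0291 to 0.137 and Txnrd1 from -3.99e-04 to 0.0410 for AngII_FI against AngII, and Gclc from -0.112 to 0.103 and Txnrd1 from -0.0702 to 0.0014 for AngII_FI against saline. The causes of these changes were not tested.

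Over all genes, AngII against saline gave 273 higher and 115 lower with all 12 libraries, 865 and 600 by DESeq2, 119 lower with total counts only, 122 lower with no filter, 255 and 85 with the replicate block, and 196 to 422 and 54 to 257 with 1 library left out, against 441 and 242. AngII_FI against saline gave 490 and 307 by DESeq2, 94 higher with total counts only, 92 and 34 with only the 2 groups, 30 lower with no filter, 20 lower with the replicate block, and 37 to 172 and 6 to 68 with 1 library left out, against 165 and 55. AngII_FI against AngII gave 7 and 16 by DESeq2, 0 and 0 by limma-voom and with all 12 libraries, 1 and 1 with the replicate block, and 1 and 0 with only the 2 groups. Correlations of deviations from the group means over all tested genes were -0.0343 to 0.0499 for same-numbered libraries. For differently numbered libraries they were -0.0580 to 0.0628. These values give no sign that replicate numbers pair the samples, but cannot exclude it. A shared factor that moved only some genes would hardly show in them.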
